A study of Mus musculus with 14 samples.

Results

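The genes described here, in liver RNA from an AMPK knockout study in mice, are 10 genes of retinoid metabolism: the retinol and retinal dehydrogenase genes Rdh16, Rdh16f2, Rdh9, Rdh10, Rdh11, Rdh12, Dhrs3 and Dhrs9, the retinal dehydrogenase gene Aldh1a1 and the retinoic acid hydroxylase gene Cyp26a1. They were taken by symbol from the 19505 genes that the arrays named. Of the 10 genes, 9 had a named row, 1 row each, and Rdh9 was not analysed here. The genes were chosen by name with the knockout minus control differences of these same arrays already known, so those differences are given as a description and are not a test.

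The knockout group comprised 8 liver samples from male mice on a C57BL/6 background that were homozygous for floxed AMPK alpha1 and alpha2 genes (Prkaa1 and Prkaa2) and had received AAV8-TBG-Cre, an adeno-associated virus that expresses Cre recombinase from the hepatocyte-directed TBG promoter. The control group comprised 6 liver samples from mice of the same floxed genotype that had received the AAV8-TBG empty vector. In the genotype labels the control samples are called empty-vector WT and the knockout samples Cre KO. All mice ate a high-fat diet (60% of calories) from 6 weeks of age, received the virus at 10 weeks of age after 4 weeks of diet, were then given metformin (50 mg/kg daily, 3 weeks), and were fasted for 16 h before the liver was taken. The labels give the age as 4 months. Cells other than hepatocytes are not targeted by the TBG promoter and are still present in whole liver. Every sample was metformin-treated, so no untreated liver enters the comparison. Whether each sample came from its own mouse is not given in the labels, so the errors describe variation among samples and could be technical in part.

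Vitamin A is held in the liver as retinyl esters, mainly in stellate cells, and leaves the liver for other tissues as retinol. Retinol dehydrogenases of the short-chain dehydrogenase family oxidise retinol to retinaldehyde, reductases of the same family turn retinaldehyde back into retinol, and aldehyde dehydrogenases oxidise retinaldehyde irreversibly to retinoic acid. Retinoic acid binds nuclear receptors that pair with RXR on DNA, and enzymes of the CYP26 family clear it by hydroxylation.

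Values are the deposited ones on a log2 scale, on which a step of 1 is a doubling. The number of arrays limits their precision, and the background level of the arrays is not known here. The 14 arrays formed 2 sets in their correlations over all rows, which the labels do not mention: 0.988 to 0.994 within a set and 0.951 to 0.963 across sets. Set 1 held knockout 1 to 4 and control 1 to 3, and set 2 held knockout 5 to 8 and control 4 to 6. Differences are knockout minus control ± SE from limma with the set as a term. A gene was called at an adjusted p under 0.05 over all 19505 genes, and "rose" or "fell" is used only of called genes. This fit called 137 genes, or 0.702% of those tested, 84 higher (0.431%) and 53 lower (0.272%). Without the set term limma called 0 genes (0%), with 655 at an unadjusted p under 0.05, so every call below depends on that term. The targeted genes were lower: Prkaa2 differed by -1.13 ± 0.08 (adjusted p = 1.92e-06, limma) and Prkaa1 by -0.67 ± 0.13 (adjusted p = 0.0302, limma), and for both genes 8 of 8 knockout samples lay below every control of their set.

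Of the 9 genes, Rdh16f2 fell in the knockout livers and none rose, against the 0.272% of all genes called lower. Rdh16f2 lies on chromosome 10 (127866476 to 127877319, GRCm38.p6) in a cluster of related dehydrogenase genes, and the reference lists it also as CRAD-L. In set 1 its values were 10.40, 10.43, 10.50 and 10.34 in knockout samples, against 10.82, 10.80 and 10.78 in control samples. In set 2 they were 9.60, 9.75, 9.76 and 9.56 in knockout samples, against 10.18, 10.30 and 10.09 in control samples. The groups did not overlap in either set, and all 8 knockout samples lay below every control of their own set. Across all genes, 105 (0.538%) had every knockout sample below every control of its set in both sets, and 151 (0.774%) had every one above.

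The set means of Rdh16f2 were 10.42 ± 0.07 in knockout (SD, n = 4) and 10.80 ± 0.03 in control samples (SD, n = 3) of set 1, and 9.67 ± 0.10 in knockout (SD, n = 4) and 10.19 ± 0.11 in control samples (SD, n = 3) of set 2. The difference was -0.45 ± 0.07, a knockout level of 0.730 of the control level, and it was -0.39 in set 1 and -0.52 in set 2. Set 2 samples were lower than set 1 samples in both groups, by 0.61 in the controls, which is a wider gap than the knockout difference. In bulk liver, fewer cells of a type and less RNA per cell cannot be told apart.

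Rdh16, a related gene of the same cluster, was not called. It encodes a dehydrogenase that in mouse is known to act on retinol and on hydroxysteroids, and its start lies at -65.39 kb from that of Rdh16f2. In set 1 it ranged from 10.9 to 11.11 in knockout and from 11.02 to 11.04 in control samples, and in set 2 from 10.25 to 10.79 in knockout and from 10.30 to 10.81 in control samples. The knockout range spanned the control range in set 1 and the ranges overlapped widely in set 2. The difference was -0.03 ± 0.10 (95% interval -0.23 to 0.18). Which stretches of these related transcripts the array probes cover is not known here, so the share of signal that one copy lends to another's row is not known either.

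Sequences at the starts of Rdh16f2 and Rdh16 are shown because these neighbours are related genes of which only Rdh16f2 was called. They are RefSeq sequences of GRCm38.p6, plus strand, 5′ to 3′, and capitals mark bases identical in the alignment of the 2 promoter windows. The Rdh16f2 stretch is the last 100 bases before its start (chr10:127866376-127866475), and the Rdh16 stretch is its aligned counterpart (chr10:127801015-127801124). The promoter table places the start of Rdh16 at 127801153, 63 bases after the start in the gene table (127801090), so the Rdh16 stretch ends 34 bases past the gene table start and is only partly upstream of it.
Rdh16f2: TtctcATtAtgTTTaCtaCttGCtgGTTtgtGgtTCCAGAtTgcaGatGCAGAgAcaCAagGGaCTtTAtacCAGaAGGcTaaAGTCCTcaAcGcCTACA
Rdh16: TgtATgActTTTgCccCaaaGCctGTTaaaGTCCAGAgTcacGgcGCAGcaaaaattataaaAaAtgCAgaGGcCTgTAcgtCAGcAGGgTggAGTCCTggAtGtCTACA
In this stretch 57 of 96 aligned bases (59.4%) were identical, and over the whole 300-base windows 166 of 252 (65.9%). The windows of Rdh16 and Rdh9 were closer to each other, with 203 of 261 aligned bases (77.8%) identical.

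No other measured gene around Rdh16f2 was called. Within 300 kb of its start the reference places 21 protein-coding genes, of which 18 had a named row. Rdh1 and Rdh9 of the cluster were among those without one. Rdh16f2, on which the region was centred, was the only 1 of the 18 past the threshold. With 0.702% of all genes called, the lack of another call does not set this region apart. The other measured genes had differences from -0.23 (Rbms2) to 0.35 (Hsd17b6). Among the other dehydrogenases of the cluster, Rdh19 differed by -0.12 ± 0.07 (95% interval -0.26 to 0.03), Rdh7 by -0.05 ± 0.06 (95% interval -0.17 to 0.07) and Sdr9c7 by 0.02 ± 0.11 (95% interval -0.21 to 0.25). Hsd17b6, which oxidises retinol and steroids, differed in the opposite direction by 0.35 ± 0.15 (95% interval 0.04 to 0.66; adjusted p = 0.400, limma) and was not called.

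**Figure D1:**
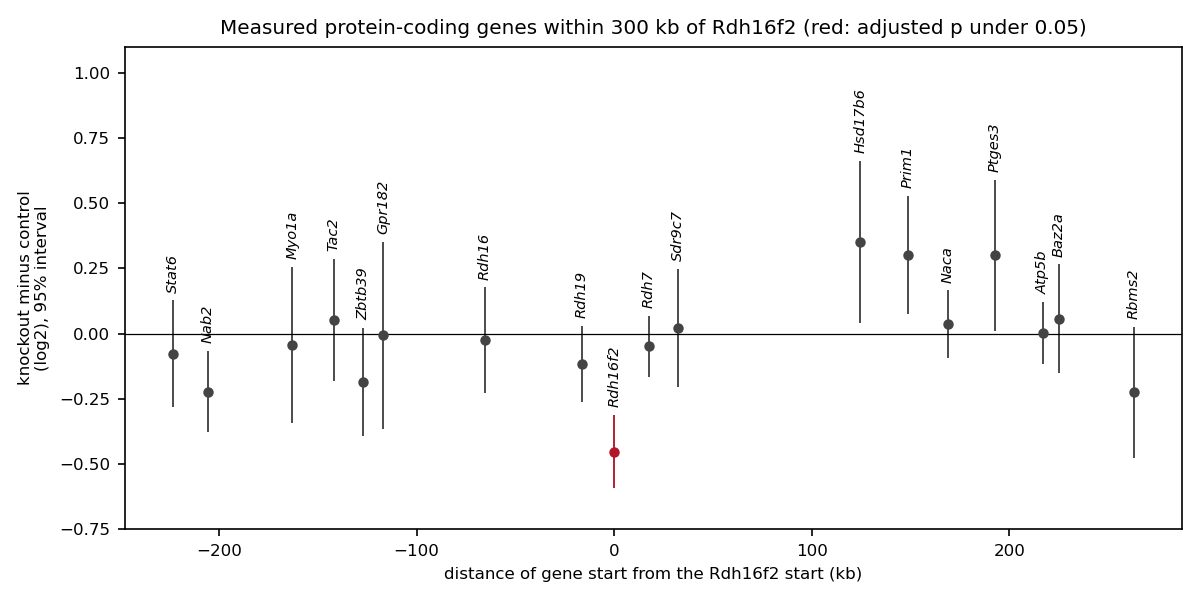
Knockout minus control difference (log2, vertical axis, with 95% interval) of the 18 measured protein-coding genes within 300 kb of Rdh16f2, by the distance of each gene's start from that of Rdh16f2 (kb). Rdh16f2 is the only gene in red, which marks an adjusted p under 0.05, at -0.45, while Rdh16, Rdh19 and Rdh7 lie between -0.12 and -0.03.

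Cyp26a1, whose enzyme hydroxylates retinoic acid for clearance and whose gene is a classical retinoic acid target, had the next largest difference and was not called. In set 1 its values were 4.68, 5.03, 4.41 and 4.85 in knockout samples, against 5.07, 5.39 and 5.44 in control samples. In set 2 they were 4.34, 4.43, 4.31 and 4.16 in knockout samples, against 4.68, 4.63 and 4.47 in control samples. All 8 knockout samples lay below every control of their set, narrowly so in both sets: the highest knockout and lowest control values were 5.03 and 5.07 in set 1, and 4.43 and 4.47 in set 2.

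The difference of Cyp26a1 was -0.42 ± 0.10 (95% interval -0.64 to -0.21), a knockout level of 0.746 of the control level, with -0.56 in set 1 and -0.28 in set 2. The difference between the set values, 0.28 (95% interval -0.14 to 0.70), did not pass the interaction test (adjusted p = 0.998, limma). All 14 values of Cyp26a1 lay below the median of their array. Without a known background level, so dim a row may not measure the gene. If it does, its fold change may be understated. The other retinoic acid hydroxylase genes were flat or imprecise: Cyp26b1 differed by -0.01 ± 0.09, Cyp26c1 by -0.00 ± 0.08 and Cyp2s1 by 0.07 ± 0.28. Cyp26b1 and Cyp26c1 also lay below every array median, so their rows may not measure the genes.

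Sequence around the start of Cyp26a1 is shown because it holds the kind of repeat that the retinoic acid receptor and RXR are known to bind. It is the RefSeq sequence of GRCm38.p6, plus strand, 5′ to 3′, for the last 100 bases before the start used in the promoter table (chr19:37697708-37697807, start at 37697808), with the repeat in capitals. The gene table places the start of Cyp26a1 70 bases earlier, at 37697738, which lies inside this stretch.
Cyp26a1: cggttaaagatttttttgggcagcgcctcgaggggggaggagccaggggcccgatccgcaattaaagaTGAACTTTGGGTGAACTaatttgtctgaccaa
The search took 4 spellings, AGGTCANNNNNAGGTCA, AGGTCANNNNNAGTTCA, AGTTCANNNNNAGGTCA and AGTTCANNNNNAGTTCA, on both strands of windows from 250 bases before to 50 bases after each RefSeq start. The match in Cyp26a1 is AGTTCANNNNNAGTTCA on the minus strand (37697776 to 37697792). It runs from base -32 to base -16 of the promoter table's start, and lies 38 to 54 bases after the gene table's start, so whether it is before or after the start depends on the start chosen. One of the 4 spellings was present in 13 of 27025 genes with a window (0.0481%), in 1 of 9 of the retinoid genes with a window (Rdh10 had none in the table) and in 0 of 47 of the other retinoid pathway genes with a window. The same half-sites 2 bases apart were in 0.0444% of genes and 1 base apart in 0.0962% of genes, and in 0 of the 9 genes at either spacing. Of the 47 other pathway genes, 0 had them 2 bases apart and 1, Bco1, had them 1 base apart. A match of letters is a description and does not show that a receptor is bound.

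The remaining retinol-oxidising genes showed no called difference. Rdh10, which makes retinaldehyde from retinol in many tissues, ranged from 7.92 to 8.16 in knockout and from 8.00 to 8.24 in control samples of set 1, and from 7.25 to 7.71 in knockout and from 7.03 to 7.58 in control samples of set 2. The groups overlapped in both sets, and the difference was -0.02 ± 0.10 (95% interval -0.23 to 0.20). Dhrs9, a retinol dehydrogenase also known to act on steroids, lay below every array median, between 3.40 and 3.97 in knockout and between 3.35 and 3.95 in control samples, and differed by 0.02 ± 0.11 (95% interval -0.22 to 0.26). At this level the row may not measure the gene.

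Among the 9 genes, the retinaldehyde reductase genes Rdh11, Dhrs3 and Rdh12 each had a negative difference that did not pass the threshold. Other listed retinol and retinal oxidoreductases had differences in both directions (given below). Rdh11 ranged from 5.91 to 6.59 in knockout and from 6.47 to 6.87 in control samples of set 1, and from 6.14 to 6.33 in knockout and from 5.88 to 6.49 in control samples of set 2. The knockout values of set 2 all lay inside the control range. Its difference was -0.22 ± 0.13 (95% interval -0.50 to 0.05), with -0.41 in set 1 and -0.03 in set 2, and the interaction of 0.38 (95% interval -0.16 to 0.91) did not pass (adjusted p = 0.998, limma). Dhrs3, which reduces retinaldehyde and is induced by retinoic acid in several systems, ranged from 10.42 to 10.58 in knockout and from 10.51 to 10.70 in control samples of set 1, and from 10.54 to 10.78 in knockout and from 10.67 to 10.86 in control samples of set 2. Its difference was -0.09 ± 0.07 (95% interval -0.24 to 0.05), and 4 of 8 knockout samples lay below every control of their set. Rdh12, a reductase best known from photoreceptors, lay below every array median and differed by -0.03 ± 0.13 (95% interval -0.31 to 0.24). That difference was -0.20 in set 1 and 0.13 in set 2.

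Aldh1a1, which oxidises retinaldehyde to retinoic acid and is abundant in liver, varied least of the 9 genes, with a spread of 0.08 within groups and sets (pooled SD), as against 0.26 for Rdh12. It ranged from 12.38 to 12.65 in knockout and from 12.36 to 12.44 in control samples of set 1, and from 12.48 to 12.65 in knockout and from 12.49 to 12.53 in control samples of set 2. The knockout samples reached higher than any control in both sets but also overlapped them. The difference was 0.05 ± 0.06 (95% interval -0.08 to 0.19).

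**Figure D2:**
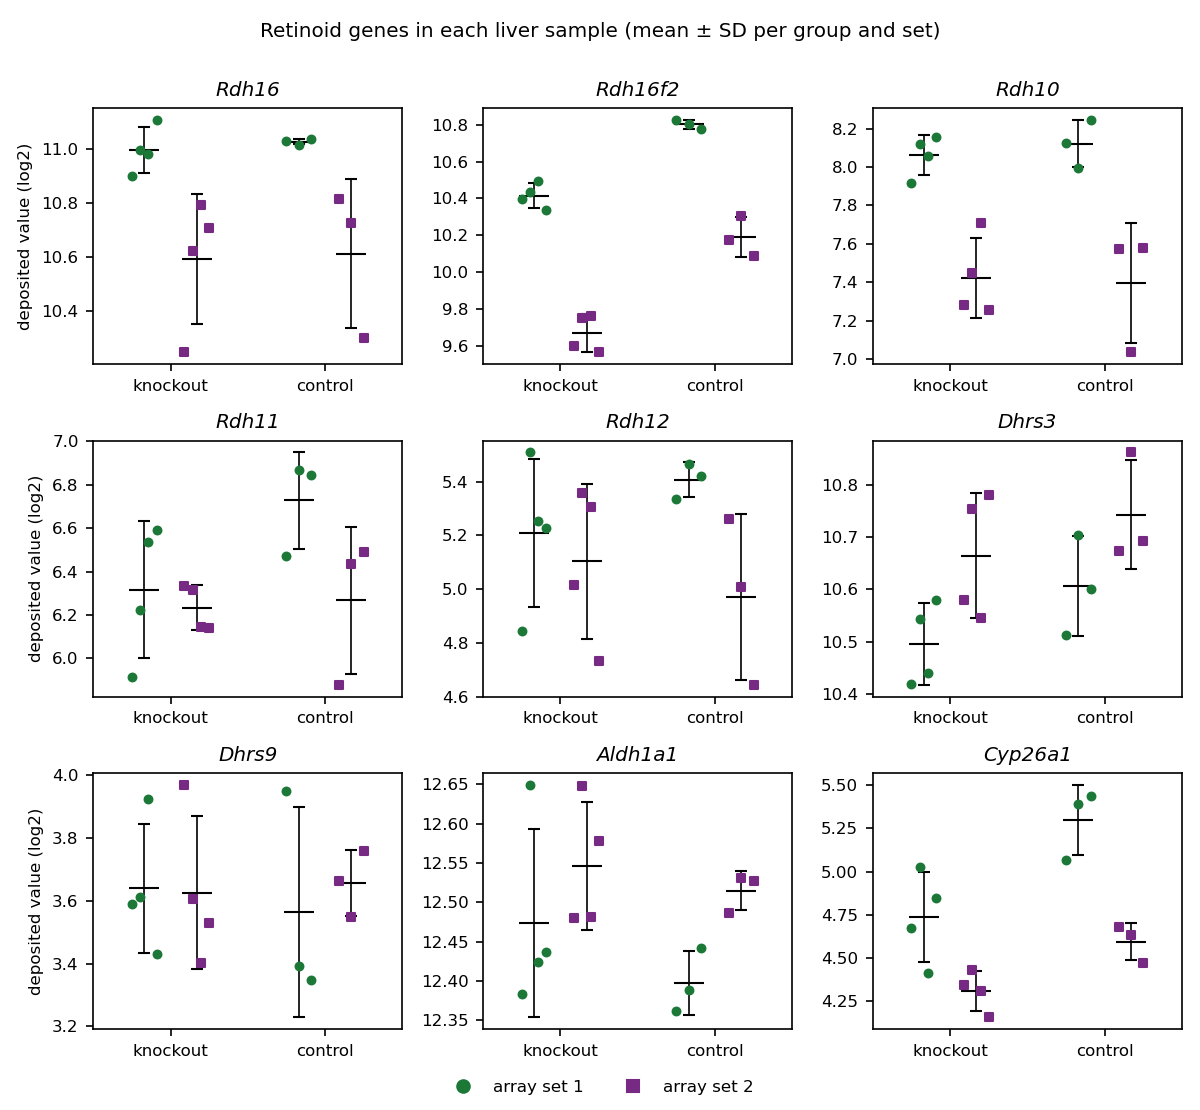
Deposited log2 values of the 9 measured genes in each sample, knockout left and control right, with set 1 as green circles and set 2 as purple squares; bars are the mean ± SD of each group and set, and the vertical axes differ and do not start at 0. Among these 9, Rdh16f2 and Cyp26a1 are the genes whose knockout samples all lie below the controls of their set.

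The 9 genes had 7 negative and 2 positive differences with a median of -0.03, against a median of 0.00 and 9645 negative differences (49.4%) over all 19505 genes. They also differed between the array sets: the set 2 minus set 1 gap of the control samples was negative in Rdh10 (-0.73), Cyp26a1 (-0.71), Rdh16f2 (-0.61), Rdh11 (-0.46), Rdh12 (-0.44) and Rdh16 (-0.42), and positive in Dhrs3 (0.14), Aldh1a1 (0.12) and Dhrs9 (0.09). The interaction of knockout and set passed for 0 of 19505 genes in limma (0%), with 943 at an unadjusted p under 0.05.

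**Figure D3:**
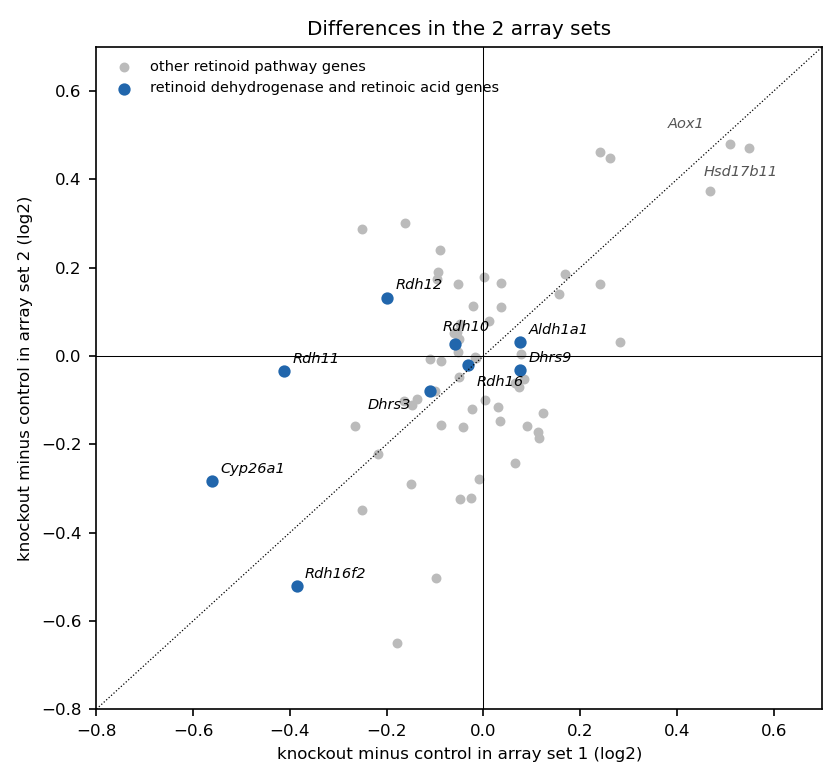
Knockout minus control difference in array set 1 (horizontal axis, log2) against that in array set 2 (vertical axis, log2), for the 9 genes in blue and the 58 other measured retinoid pathway genes in grey; the dotted line marks equal differences. Rdh16f2 (-0.39 and -0.52) and Cyp26a1 (-0.56 and -0.28) are low in both sets, while Rdh11 is low in set 1 (-0.41) and near 0 in set 2 (-0.03).

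Among 62 other listed genes of retinoid uptake, storage, conversion, binding and response, 58 had a named row, and the other 4 were not analysed here. Of the 58, 2 rose and none fell, against 0.702% of all genes called. The list held 26 positive and 32 negative differences, with a median of -0.01 against 0.00 over all genes.

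The 2 genes that rose encode oxidising enzymes. Hsd17b11, a lipid droplet dehydrogenase of the same enzyme family as the retinol dehydrogenases, had values of 11.00, 10.92, 11.26 and 11.17 in knockout samples of set 1, against 10.58, 10.44 and 10.60 in control samples, and of 11.91, 11.87, 11.96 and 11.98 in knockout samples of set 2, against 11.63, 11.31 and 11.44 in control samples. The groups did not overlap in either set, and the difference was 0.51 ± 0.07 (adjusted p = 0.00722, limma), a call that held without any 1 array and was lost without knockout 7 and 8 together. Aox1, an aldehyde oxidase that can turn retinaldehyde into retinoic acid, had values of 8.57, 8.92, 8.57 and 8.65 in knockout samples of set 1, against 8.04, 8.10 and 8.36 in control samples, and of 9.16, 9.74, 9.56 and 9.55 in knockout samples of set 2, against 8.75, 9.16 and 9.16 in control samples. It was above every control of its set in 7 of 8 knockout samples and differed by 0.50 ± 0.10 (adjusted p = 0.0390, limma). That call held without 2 of the 14 single arrays only (control 3 or knockout 5), with adjusted p between 0.0204 and 0.104.

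Apart from Aldh1a1 (0.05 ± 0.06), 4 of the 6 genes listed for the step from retinaldehyde to retinoic acid were positive, with a list median of 0.15. The 2 negative ones were Aldh1a2 (-0.14 ± 0.09), which lay below every array median, and Aldh1a3 (-0.06 ± 0.11), and neither was called. Besides Aox1, its relative Aox3 differed by 0.20 ± 0.07 (adjusted p = 0.259, limma). Of 18 genes listed as other retinol and retinal oxidoreductases, 8 were positive and 10 negative, and Hsd17b11 was the only one called. Whether Hsd17b11 acts on retinoids was not tested. On the same list, Adh1 differed by -0.13 ± 0.06 (adjusted p = 0.429, limma), with 8 of 8 knockout samples below every control of their set. In the storage and release list, 6 of 7 were positive and 0 called: Lpl, the lipoprotein lipase that also frees retinol from chylomicron esters, differed by 0.42 ± 0.10 (adjusted p = 0.0604, limma) and the carboxylesterase gene Ces1e by 0.36 ± 0.08 (adjusted p = 0.0660, limma). Lrat, the acyltransferase that makes retinyl esters, differed by -0.21 ± 0.21 (95% interval -0.65 to 0.23).

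The binding proteins, receptors and retinoic acid targets had 0 calls. Among 9 uptake and binding genes, 6 were negative, and the largest differences were those of Fabp5, an intracellular carrier that can deliver retinoic acid (-0.41 ± 0.22, adjusted p = 0.554, limma), and Crabp2, which carries retinoic acid to its receptor (-0.22 ± 0.08, adjusted p = 0.293, limma). The 6 receptor genes lay within -0.04 and 0.00 of no difference, with Rxrg at -0.04 ± 0.11 and Rarg at -0.03 ± 0.09. Of 10 measured target genes 9 were negative, against 49.4% of all genes, with a list median of -0.10. In limma 2 of them, Crabp2 and Rarres1, had an unadjusted p under 0.05, as did 2021 of all 19505 genes. Crabp2, Stra6, Lrat and Rarb of this list are also counted in the lists above. Crabp2, Stra6 and Stra8 lay below every array median. The gene Rarres1 differed by -0.30 ± 0.14 (adjusted p = 0.458, limma), with -0.10 in set 1 and -0.50 in set 2. In the carotenoid list Bco2, a carotenoid-cleaving enzyme, differed by -0.30 ± 0.13 (adjusted p = 0.454, limma) and the uptake receptor gene Scarb1 by 0.10 ± 0.09.

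**Figure D4:**
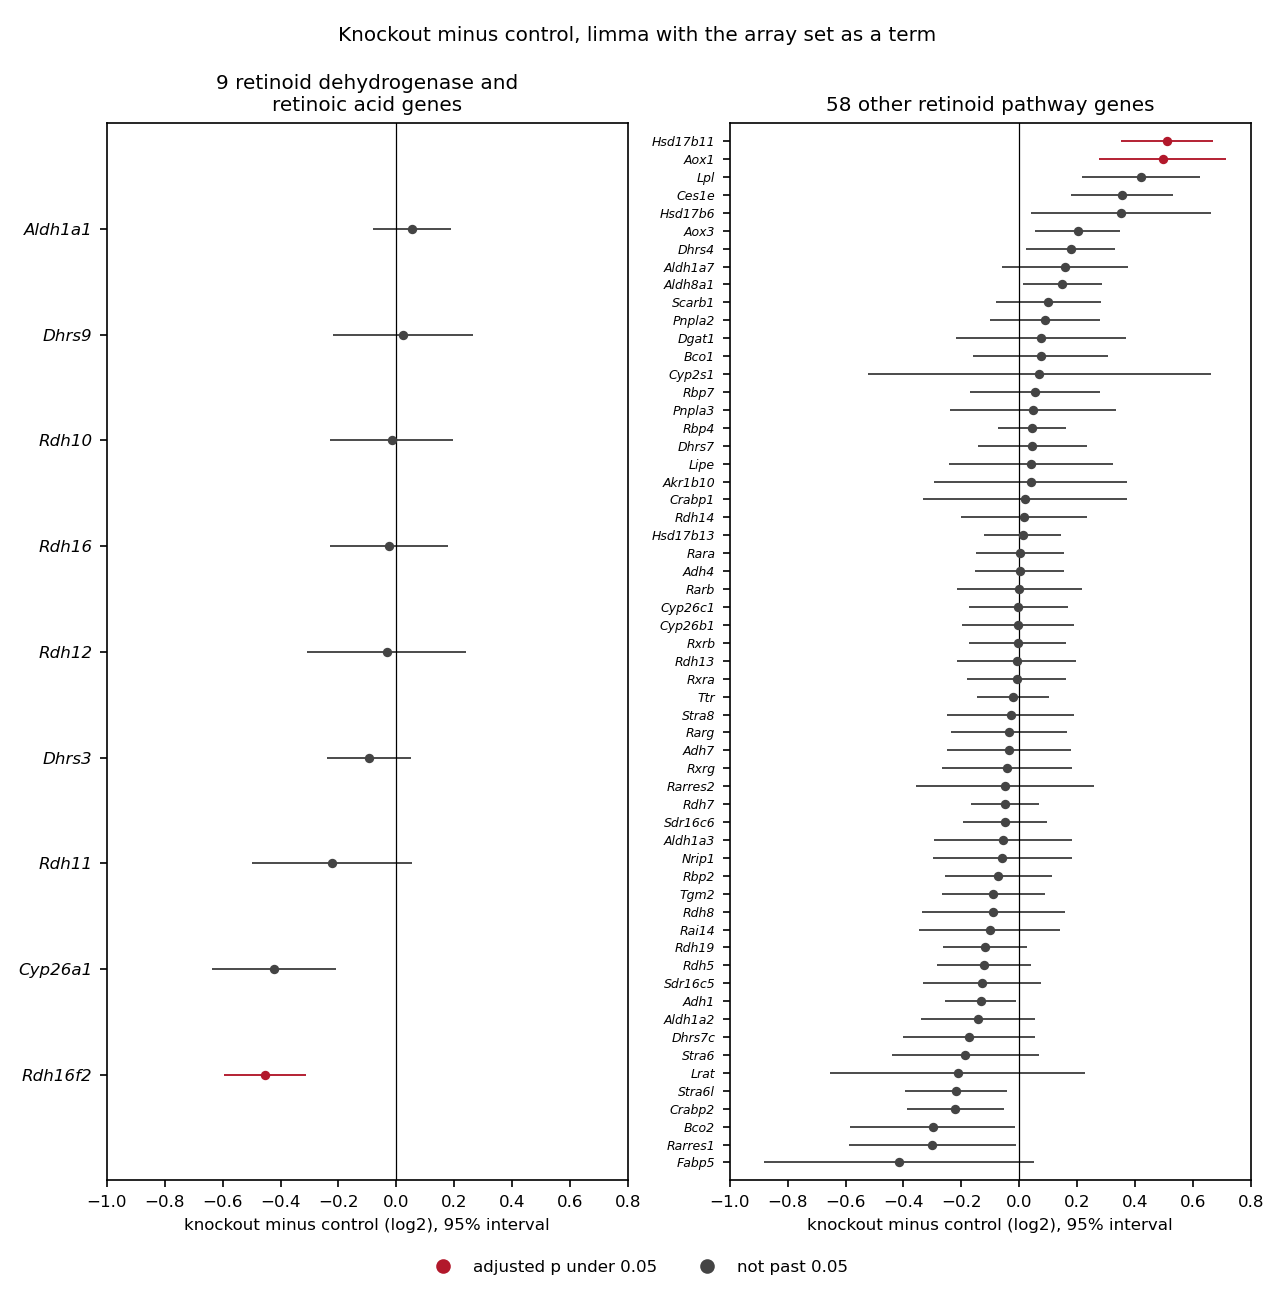
Knockout minus control difference (horizontal axis, log2) with its 95% interval for the 9 genes (left) and the 58 other measured retinoid pathway genes (right), from limma with the array set as a term; red marks an adjusted p under 0.05. Rdh16f2 at -0.45 is the only red gene on the left, and Hsd17b11 at 0.51 and Aox1 at 0.50 are the red genes on the right.

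Cell type markers showed no called gene in any list of hepatocyte, stellate, sinusoidal endothelial, Kupffer or bile duct markers. Stellate cells store most liver vitamin A, and 8 of 10 stellate markers had a named row. Their mean value per sample ranged from 7.53 to 7.88 in knockout and from 7.38 to 8.03 in control samples of set 1, and from 7.93 to 8.26 in knockout and from 8.01 to 8.35 in control samples of set 2. The lowest controls were control 1 in set 1 (7.38) and control 4 in set 2 (8.01). Without control 1 and control 4 the difference of Rdh16f2 was -0.45 and that of Cyp26a1 was -0.46. The lowest knockout samples, knockout 4 (7.53) and knockout 8 (7.93), were kept. That fit therefore does not compare samples of like marker level, and it cannot address cell composition. The part of stellate cells in these values was not tested.

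The genes that varied most like Rdh16f2 over the 14 arrays, after the set and group means were removed, were Eri2 (Pearson r = 0.88), Tal2 (r = 0.87) and Bag5 (r = 0.87), picked as the highest of all named genes outside the 10. None of them was called, with differences of 0.10 ± 0.09, -0.12 ± 0.12 and -0.01 ± 0.09. These correlations are a description over 14 arrays.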

How the data were processed

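Per the labels, liver RNA of 8 knockout and 6 control samples was labelled with the WT PLUS kit for Affymetrix arrays. The authors deposited log2 values for 22206 rows (2.13 to 13.8), and RMA and Partek are named per the submitters' processing notes, with versions not given in the sources used here. No further normalization was done. Rows were named from the platform annotation, with symbols updated by gene identifier from RefSeq (GRCm38.p6): 19572 rows had 1 symbol, 0 several, and 2634 were not named here. Where several rows named a gene (55 genes), the brightest on average stood for it. All 19505 genes entered the fit, whatever their level.

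The array sets came from average linkage clustering of correlations over all rows, without the groups. The knockout minus control contrast was fitted in limma 3.58.1 under R 4.3.3 (lmFit, then eBayes), adjusting for array set and leaving 11 residual degrees of freedom, with Benjamini-Hochberg adjustment over all genes and a threshold of 0.05. The fit was tested on simulated data. In the labels, knockout 7 and 8 carry the same description numbers as knockout 5 and 6; no pair of arrays shared more than 4 identical values of the 22206, which shows only that no file was copied. Each was counted as a sample by its title, and whether they repeat the same RNA is not known here. The genes described, the lists, the set term and the alternatives were chosen with earlier results of these data known; the alternatives for the interaction were added after seeing the data. Genes are named if they are among the 10, targeted, or most like a called gene of the 10. Genes called in a pathway list or among its 2 largest differences are also named. Added after their values were seen were Cyp26c1, Lrat, Adh1, Aldh1a2, Aldh1a3, Bco1, Stra6, Stra8, Rarb, the cluster genes and the zonation genes. So were the genes named for their gap between array sets.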

Additional observations from a re-analysis of the deposited data

How the results depend on the processing

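Rdh16f2 was negative under every alternative run, between -0.48 and -0.42 over the 25 that used both sets, and was called in 23 of them; the exceptions were the fit without the set term and the replicate block. Cyp26a1 lay between -0.47 and -0.36 and was called in none of 24; the filter on dim genes removed it, Dhrs9 and Rdh12. The count of 137 called genes, of 1 among the 9 and of 2 among the 58 pathway genes was 0, 0 and 0 without the set term, 2, 0 and 0 in each set alone, 275, 1 and 4 with only genes above the median, 325, 1 and 6 with trend and robust options, and 26, 1 and 1 without control 1 and control 4. It was 67, 1 and 1 with the repeated knockout descriptions averaged, 12, 1 and 0 without knockout 7 and 8, 18, 1 and 1 at a threshold of 0.01, and 242, 2 and 4 at 0.1. With single arrays left out the counts ran from 44 to 132, from 1 to 1 and from 1 to 3; the first was within 1.5 times of 137 only without control 3 (132), control 6 (94) or knockout 6 (93), and was lowest without control 4 (44). With the replicate number as a block they were 2, 0 and 0. The Hsd17b11 call was lost without the set term, under the block and without knockout 7 and 8, and held in the other 22 of 25. Same-numbered samples correlated between 0.02 and 0.09 in their deviations, with 0 of 6 pairs over 0.1. This cannot decide whether they were paired, because pairs with unlike numbers were not compared. Control 4 and knockout 4 also lie in different sets. The interaction count stayed at 0 under the added alternatives. Median centring, quantile normalization, array weights and the mean of all rows changed none of the calls among the 9 or the 58. Where a count moved, the cause was not tested.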

Other observations

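Zonation genes of hepatocytes were examined because several retinoid enzymes are zoned in the liver lobule. Of 7 measured pericentral genes 1 was lower and 0 higher, the glutamate transporter gene Slc1a2, which fell by 0.37 ± 0.08 on the log2 scale (adjusted p = 0.0454, limma), against 0.272% of all genes called lower. That call was lost when any 1 of the 14 arrays was left out (adjusted p between 0.0558 and 0.105), and held in 4 of 25 alternatives run after the value was seen. The other 6 lay between -0.09 and 0.17, with Cyp1a2 at -0.09 ± 0.08 and Axin2, a Wnt target, at 0.17 ± 0.11. Of 5 measured periportal genes none was called. The gluconeogenic gene Pck1 differed by 0.31 ± 0.10 and the histidine-degrading gene Hal by -0.24 ± 0.10.

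The array sets differed widely in some retinoid pathway genes. The gap, set 2 minus set 1, was -2.89 in Rarres2, -2.05 in Fabp5, -1.82 in Dgat1, which can also esterify retinol, and -1.65 in Rdh14, while it was 1.40 in Rxra, a retinoid receptor gene, and 1.13 in Rai14. The knockout minus control differences were -0.05 in Rarres2, -0.41 in Fabp5, 0.07 in Dgat1, 0.02 in Rdh14, -0.01 in Rxra and -0.10 in Rai14, and none was called. The median gap over all genes was 0.11, and 2148 genes (11.0%) had set means apart by over 1 in either direction. Gaps over 1 were thus not particular to retinoid genes.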
